A study of Ovis aries with 40 samples.

Results

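C25H10orf10 and LOC105605070 are a pair of genes on sheep chromosome 25 whose annotated exons overlap. They were selected for their measured counts at term, where both were higher in CF than in WT lung, and they are 2 of the 24478 genes in the count tables. The libraries analysed here were made from RNA of proximal and distal lung of American Romney sheep. They came from fetuses of 65, 80, 100 and 120 days and from term animals, labelled day 147. Each of the 20 combinations of genotype, region and age had 2 libraries, which makes 40. WT animals were bred by mating, and CF animals carried CFTR-/- with the lesion targeted to exon 2, and were cloned by somatic cell nuclear transfer from 1 male fibroblast line. Genotype, cloning and the donor line therefore cannot be told apart here. The WT term animals were born naturally and their time from birth to collection was recorded by the study, but that time and the delivery of the CF term animals are not given in the sources used here. The proximal and distal libraries with the same replicate number come from the same animal, so each genotype at term rests on 2 animals.

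Before term, the 16 WT libraries held 24670355 to 43700012 counted reads and the 16 CF libraries 85773994 to 103139483. The 8 term libraries held 115937437 to 126749480 in WT and 117316905 to 119451372 in CF. CFTR, which the targeting did not remove from the counts, had 2.94 to 3.97 CPM (read counts scaled to a common library size) in CF and 8.80 to 14.1 CPM in WT at term, and before term 4.25 to 39.2 CPM in CF against 10.3 to 45.0 CPM in WT. These CFTR values are scaled by total counts alone, whereas the CPM of all other genes here are also TMM normalized. The lung epithelial markers NKX2-1, EPCAM, CDH1, SFTPC and SFTPB and the endothelial markers PECAM1 and CDH5 had reads in each of the 40 libraries. Both WT day 100 replicates carry 1 animal label, and WT day 65 replicate 2 and CF day 100 replicate 2 share another although they differ in genotype and age. Each was placed by its title.

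C25H10orf10 is the sheep counterpart of the human gene DEPP1, also called C10orf10. It was first described as a decidual protein induced by progesterone, and it is known as a direct target of FOXO transcription factors, which are held in the cytoplasm by insulin and growth factor signalling and enter the nucleus when that signalling falls. It has been linked to fasting, oxidative stress, autophagy and the vascular endothelium, and to low oxygen. LOC105605070 is an annotated gene without a name, and its function is not known here. In bulk tissue, a change in the number of cells that express a gene and a change in the RNA per cell cannot be told apart.

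In the Oar_v4.0 coordinates of the count tables, C25H10orf10 lay on the forward strand with an exon of 176 bases at chr25:43973029-43973204 and one of 920 bases at chr25:43973776-43974695. LOC105605070 lay on the reverse strand with an exon of 176 bases at chr25:43974483-43974658 and one of 1661 bases at chr25:43974739-43976399. The small exon of LOC105605070 fell wholly inside the large exon of C25H10orf10, so the 2 genes shared 176 exonic bases, which is 16.06% of the exonic length of C25H10orf10 and 9.581% of that of LOC105605070. Only 43 bases separated the end of C25H10orf10 from the large exon of LOC105605070. Both genes lay in the span of RASSF4, a RAS-association domain family gene on the reverse strand at chr25:43958525-43992726, and shared 0 exonic bases with it. The strand setting of the read counting is not given in the sources used here, so reads from a gene and from its antisense partner cannot be told apart, and the counts of both are uncertain to that extent. Of the exonic bases, 920 in C25H10orf10 and 1661 in LOC105605070 lay outside the shared stretch.

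**Figure D1:**
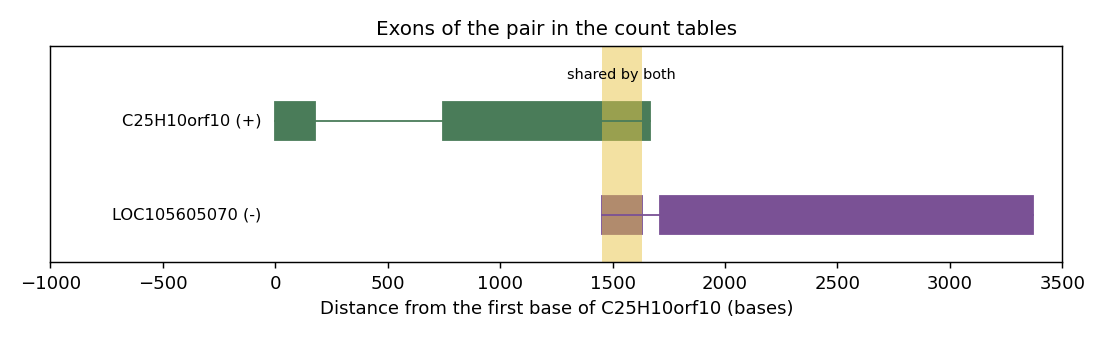
Exons of C25H10orf10 (strand +) and LOC105605070 (strand -) as boxes, on an axis of distance in bases from the first base of C25H10orf10. The shaded band marks the 176 bases that exons of both genes hold, at the end of the large exon of C25H10orf10 and over the small exon of LOC105605070.

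At term, both genes were far higher in the CF libraries than in the WT libraries of both lung regions. In proximal lung, C25H10orf10 stood at 5.24 and 6.50 CPM in WT replicates 1 and 2 and at 160 and 766 CPM in CF replicates 1 and 2. In distal lung, it stood at 4.15 and 6.92 CPM in WT and at 144 and 919 CPM in CF. No CF term library overlapped a WT term library, and in both regions CF replicate 2 was the highest, by 4.80-fold over CF replicate 1 in proximal and 6.38-fold in distal lung. LOC105605070 stood at 0.749 and 1.19 CPM in WT and 39.9 and 156 CPM in CF proximal lung. In distal lung, it stood at 0.641 and 0.693 CPM in WT and 32.7 and 179 CPM in CF. Here too the groups did not overlap, and CF replicate 2 was above CF replicate 1 by 3.92-fold in proximal and 5.47-fold in distal lung. The share of all genes whose groups lay apart is not given here, nor for the later comparisons without overlap. Such statements only describe the values. The values behind the lowest libraries were counts of 459 reads for C25H10orf10 and 71 reads for LOC105605070, both in WT distal replicate 1, so neither gene was absent from WT at term.

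As means of 2 libraries, C25H10orf10 was 5.87 ± 0.896 CPM (SD, n = 2) in WT and 463 ± 429 CPM (SD, n = 2) in CF proximal lung, which is 78.9-fold. It was 5.53 ± 1.96 CPM (SD, n = 2) in WT and 531 ± 548 CPM (SD, n = 2) in CF distal lung, which is 96.0-fold. The CF over WT fold for LOC105605070 was 101 in proximal and 159 in distal lung. The size of these folds rested on the CF animal labelled replicate 2. With CF replicate 1 alone against the WT mean, C25H10orf10 was 27.2-fold higher in proximal and 26.0-fold higher in distal lung, and LOC105605070 was 41.2-fold and 49.0-fold higher. These values are a description with no test, because the pair was chosen from this contrast. In the fit of all genes, C25H10orf10 ranked 20 and LOC105605070 ranked 15 by log2 fold change among 20344 genes in proximal lung, and they ranked 29 and 14 among 20084 in distal lung. For the background, edgeR called 0.339% of genes in proximal and 1.25% in distal lung as differentially expressed genes (DEGs) at term, with limits of 0.001 on the Benjamini-Hochberg adjusted p and 0.58 on the size of the log2 fold change.

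**Figure D2:**
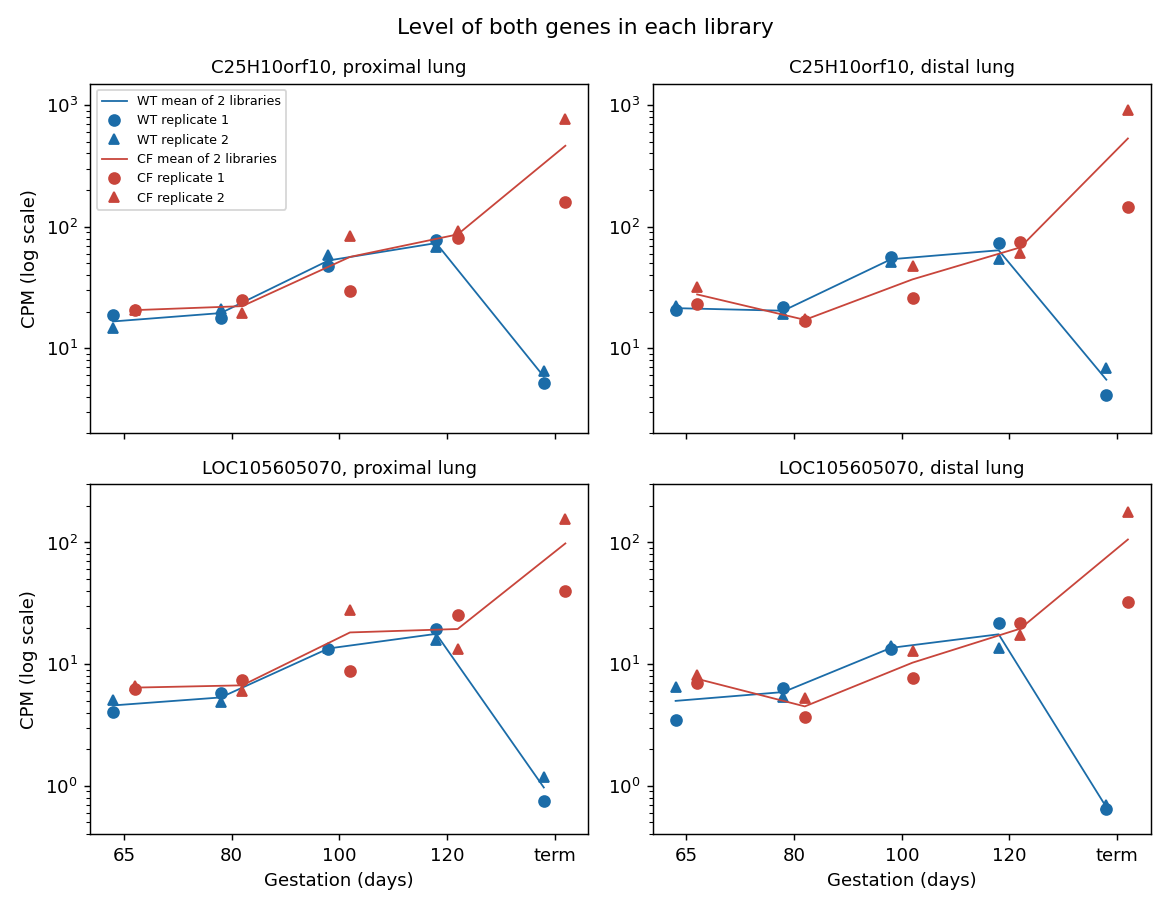
CPM (log axis, TMM normalized) of C25H10orf10 and LOC105605070 in each of the 40 libraries by gestational age, with WT in blue, CF in red, replicate 1 as circles, replicate 2 as triangles and lines through the means of 2 libraries. The genotypes run together to day 120, and at term the WT libraries lie at 4.15 to 6.92 CPM and the CF libraries at 144 to 919 CPM for C25H10orf10.

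The gap at term was made of a lower level in WT and a higher level in CF, each set against day 120 of the same genotype. In WT proximal lung, C25H10orf10 went from 78.1 and 68.6 CPM at day 120 to 5.24 and 6.50 CPM at term, which is 12.5-fold lower, and in WT distal lung from 73.6 and 54.5 CPM to 4.15 and 6.92 CPM, which is 11.6-fold lower. LOC105605070 was 18.3-fold lower at term in WT proximal and 26.4-fold lower in WT distal lung. In CF proximal lung, C25H10orf10 went from 81.5 and 91.5 CPM to 160 and 766 CPM, which is 5.35-fold higher, and in CF distal lung from 74.9 and 60.3 CPM to 144 and 919 CPM, which is 7.86-fold higher. LOC105605070 was 5.05-fold higher at term in CF proximal and 5.41-fold higher in CF distal lung. In each region all WT term libraries were below all WT day 120 libraries and all CF term libraries were above all CF day 120 libraries, for both genes. These steps use the term libraries that chose the pair and were not tested.

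As means of 2 libraries, both genes were higher at days 100 and 120 than at days 65 and 80 in each genotype and region. Between days 65 and 80 they did not all go one way, since in CF distal lung the mean went from 27.8 to 17.2 CPM for C25H10orf10 and from 7.57 to 4.50 CPM for LOC105605070. C25H10orf10 ranged from 14.6 to 32.2 CPM, with a median of 20.6 CPM, over the 16 libraries of days 65 and 80. It ranged from 26.0 to 83.5 CPM over the 8 libraries of day 100, with a median of 49.6 CPM, and from 54.5 to 91.5 CPM over the 8 libraries of day 120, with a median of 74.2 CPM. No library of days 65 and 80 overlapped a day 120 library. LOC105605070 ranged from 3.50 to 8.16 CPM at days 65 and 80, from 7.65 to 27.6 CPM at day 100 and from 13.4 to 25.5 CPM at day 120. Its days 65 and 80 and its day 120 did not overlap either. From day 65 to day 120, the mean of C25H10orf10 was higher by 4.40-fold in WT proximal, 4.19-fold in CF proximal, 2.99-fold in WT distal and 2.43-fold in CF distal lung.

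Before term, the largest step between consecutive ages in WT fell between days 80 and 100. In WT proximal lung, C25H10orf10 stood at 17.9 and 21.2 CPM at day 80 and at 47.3 and 58.3 CPM at day 100, and in WT distal lung at 21.8 and 19.0 CPM and then at 56.6 and 51.5 CPM. The log2 fold change was 1.42 (SE 0.19, adjusted p = 0.00886, edgeR) in WT proximal and 1.40 (SE 0.25, adjusted p = 0.0391, edgeR) in WT distal lung, so it passed an adjusted p of 0.05 in both but not the limit of 0.001 for a DEG. LOC105605070 had log2 fold changes of 1.32 (adjusted p = 0.0546, edgeR) and 1.20 (adjusted p = 0.170, edgeR) at the same step. Both WT day 100 libraries of a region carry 1 animal label, so their spread may be smaller than that between animals. With these libraries summed to 1 per region, the adjusted p for C25H10orf10 was 0.0519 in WT proximal and 0.285 in WT distal lung, and with the replicate number as a block it was 0.0180 and 0.0603 (edgeR), so the distal value no longer passed 0.05 either way and the proximal value did not with the sum. With 1 of the 4 libraries of the step left out, it was 0.0388 to 0.0832 in WT proximal lung, passing 0.05 only without day 100 replicate 1, and 0.202 to 0.354 in WT distal lung (edgeR).

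In CF lung, the same step was uneven between animals and was not called. In CF proximal lung, C25H10orf10 stood at 25.04 and 19.5 CPM at day 80 and at 29.5 and 83.5 CPM at day 100. In CF distal lung, it stood at 16.9 and 17.5 CPM and then at 26.0 and 47.8 CPM. Day 100 replicate 2 was the higher one in both regions and for both genes, and its animal label is the one shared with a WT day 65 library. The log2 fold changes were 1.34 (SE 0.68) and 1.44 (SE 0.70) for C25H10orf10 and LOC105605070 in proximal lung and 1.09 (SE 0.66) and 1.18 (SE 0.63) in distal lung, each with an adjusted p of 1 (edgeR). Without CF proximal day 100 replicate 2, the value for C25H10orf10 was 0.47, and without CF distal day 100 replicate 2 it was 0.57.

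Over the 12 comparisons of consecutive ages before term, 0 of 24 tests of the pair gave a DEG by edgeR, and 5 of 24 had an unadjusted p under 0.05. DESeq2 called 3 of 24 at the same limits, all between days 80 and 100 in WT. The share of all genes called by DESeq2, or with an unadjusted p under 0.05, is not given here. The counts of 3 and 5 thus have no background beside them. At the DEG limits, the edgeR background was 0% of genes called in each time course from day 65 to 80 and from day 80 to 100. From day 100 to 120, it was 0.077% in WT proximal, 0.0274% in WT distal, 0% in CF proximal and 0.0103% in CF distal lung.

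CF and WT were compared at each age before term to ask whether the difference at term was already present in the fetus. No difference was detected. At day 120, C25H10orf10 stood at 78.1 and 68.6 CPM in WT and 81.5 and 91.5 CPM in CF proximal lung, and at 73.6 and 54.5 CPM in WT and 74.9 and 60.3 CPM in CF distal lung. In distal lung these values overlapped, and in proximal lung both CF libraries were above both WT libraries by 1.18-fold on average. LOC105605070 stood at 19.5 and 15.9 CPM in WT and 25.5 and 13.4 CPM in CF proximal lung at day 120, and at 21.7 and 13.5 CPM in WT and 21.7 and 17.4 CPM in CF distal lung. Over the 4 ages, 2 regions and 2 genes, the log2 fold changes of CF against WT lay between -0.56 and 0.60, with standard errors from 0.53 to 0.57. By edgeR, 0 of 16 tests gave a DEG, 0 of 16 had an unadjusted p under 0.05 and the lowest adjusted p was 0.574. DESeq2 also called 0 of 16. The edgeR background in proximal lung was 0% of genes called at each of the 4 ages. In distal lung, it was 0.0797% at day 65, 0.164% at day 80, 0.149% at day 100 and 0.0896% at day 120.

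The 4 ages were also pooled, by an exact permutation test, two-sided, of genotype labels within age. It has 1296 arrangements and a smallest possible p of 0.00154. Both WT day 100 libraries of a region carry 1 animal label but were permuted as separate units. The day 100 comparison of CF and WT above treats them so too. Averaged over ages, C25H10orf10 was higher in CF by 0.16 on the log2 CPM scale in proximal lung (exact permutation p = 0.420, adjusted p = 0.810 over 7 tests), with CF above WT at 3 of 4 ages by means of log2 CPM and at 4 of 4 by mean CPM. In distal lung, it was -0.10 (exact permutation p = 0.579, adjusted p = 0.810), with CF above WT at 2 of 4 ages. LOC105605070 differed by 0.27 in proximal lung (exact permutation p = 0.225, adjusted p = 0.810) and by -0.0049 in distal lung (exact permutation p = 0.975, adjusted p = 0.975). The proximal value depended on either of the CF day 100 animals. Without CF proximal day 100 replicate 1, the difference for C25H10orf10 was 0.35 (exact permutation p = 0.00617, adjusted p = 0.0432), and without CF proximal day 100 replicate 2 it was -0.024 (exact permutation p = 0.914). The difference between regions in the effect of genotype was 0.27 for C25H10orf10 (exact permutation p = 0.122) and 0.28 for LOC105605070 (exact permutation p = 0.228).

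Before term, no difference between proximal and distal lung of the same genotype was detected for either gene. Averaged over the 4 ages before term, the log2 fold change of proximal over distal lung in WT was -0.07 (SE 0.12) for C25H10orf10 and -0.07 (SE 0.16) for LOC105605070, and in CF it was 0.22 (SE 0.37) and 0.28 (SE 0.36). Over these 4 tests, edgeR called 0 DEGs and 0 had an unadjusted p under 0.05, and DESeq2 called 0 of 4. At term, where the libraries are those that chose the pair and the values are a description, the log2 fold change was 0.08 (SE 0.23) and 0.54 (SE 0.33) in WT and -0.20 (SE 0.74) and -0.11 (SE 0.72) in CF. The edgeR background was 0.00534% of genes called in WT before term, 0% in WT at term, 0% in CF before term and 0% in CF at term. The values at term in CF rested on replicate 2, since that animal was higher in distal than in proximal lung (919 against 766 CPM of C25H10orf10) while replicate 1 was higher in proximal lung (160 against 144 CPM).

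The ratio of the LOC105605070 count to the C25H10orf10 count spanned a smaller range than the levels did. Before term, C25H10orf10 ran from 14.6 to 91.5 CPM, a 6.25-fold range, and LOC105605070 from 3.50 to 27.6 CPM, a 7.88-fold range, while the ratio spanned a 2.37-fold range. Over the 40 libraries, C25H10orf10 spanned a 222-fold range of CPM and LOC105605070 a 279-fold range, which run between the WT and CF term libraries that chose the pair, while the ratio ran from 0.1001 to 0.347, a 3.47-fold range, with a median of 0.271. Library size and its scaling cancel in this ratio. Per kilobase of exon, C25H10orf10 had the higher CPM in every library, by 4.83-fold to 16.7-fold. On that scale, its median before term was 31.7 CPM per kilobase in WT and 25.3 in CF, against 5.37 and 4.30 for LOC105605070.

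Before term, the ratio ran from 0.170 to 0.347 with a median of 0.261 in the 16 WT libraries and from 0.147 to 0.330 with a median of 0.297 in the 16 CF libraries. The log2 ratio differed between CF and WT by 0.11 in proximal lung (exact permutation p = 0.509, adjusted p = 0.810) and by 0.10 in distal lung (exact permutation p = 0.455, adjusted p = 0.810). Between proximal and distal lung of the 15 animals before term it differed by 0.03 (exact permutation of region within animal p = 0.792, adjusted p = 0.924), with proximal higher in 11 of 15. CF proximal day 120 replicate 2 stood apart with 1156 reads of LOC105605070 against 7881 of C25H10orf10, a ratio of 0.147 with an exact binomial 95% interval of 0.138 to 0.156 that covers counting error only. Where both mates of a fragment were counted, as the even counts described next leave possible, reads are not independent and the intervals given for ratios are too narrow. Its partner, CF proximal day 120 replicate 1, had a ratio of 0.312 (0.299 to 0.327), and the distal library of the same animal had 0.288 (0.273 to 0.304). That library was also the one with the largest share of even counts, 85.82% of its counts from 1 to 20, against a lowest share of 69.18% over all libraries. The part of this in its ratio was not tested.

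At term, the ratio was 0.143 and 0.183 in WT proximal, 0.155 and 0.1001 in WT distal, 0.250 and 0.204 in CF proximal and 0.227 and 0.195 in CF distal lung. All 4 CF values were above all 4 WT values, and all 8 were below the median of 0.289 over the 32 libraries before term. So LOC105605070 differed by a larger fold than C25H10orf10 between CF and WT at term. Between the CF animals the order was reversed, since replicate 2, with the higher levels, had the lower ratio in both regions, and C25H10orf10 differed by the larger fold. The term ratios use the values that chose the pair and were not tested. The WT term ratios rest on few reads of LOC105605070, which were 86, 142, 71 and 79 in proximal replicates 1 and 2 and distal replicates 1 and 2, and the interval of the lowest, 0.1001, was 0.0784 to 0.126.

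**Figure D3:**
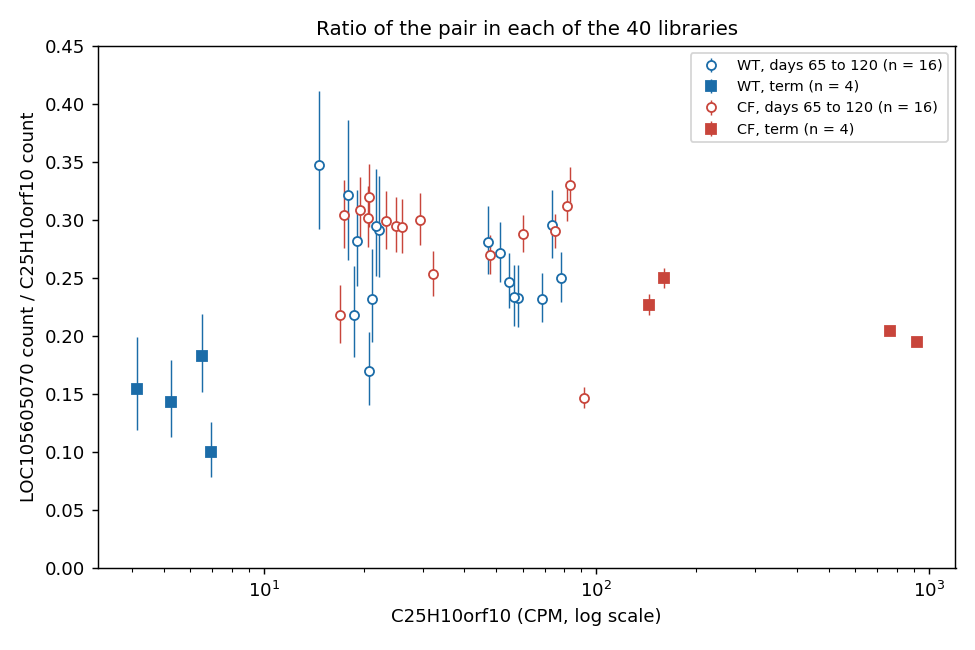
Ratio of the LOC105605070 count to the C25H10orf10 count in each of the 40 libraries against the CPM of C25H10orf10 (log axis), with WT in blue and CF in red, open circles for days 65 to 120 and filled squares for term. Bars are exact binomial 95% intervals for counting error, and the WT term libraries lie lowest in level, with ratios of 0.1001 to 0.183.

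The genes around the pair were read next, to see whether the difference at term extended along the chromosome. Of 13 other genes within 500 kb, 11 passed the filter on low counts, and 0 of 11 passed an adjusted p of 0.05 for CF against WT at term in either region (edgeR). The background at this limit was 2.6% of genes higher and 3.49% lower in CF in proximal lung, and 7.65% higher and 7.57% lower in distal lung, so a count of 0 of 11 is read as close to the background. RASSF4, whose span holds the pair, stood at 27.8 and 37.4 CPM in WT and 35.6 and 60.0 CPM in CF proximal lung, and at 29.0 and 33.0 CPM in WT and 37.7 and 59.6 CPM in CF distal lung. Its log2 fold change was 0.55 (SE 0.38, adjusted p = 0.463, edgeR) in proximal and 0.67 (SE 0.23, adjusted p = 0.0595, edgeR) in distal lung. CF replicate 2 was again the higher CF library in both regions. Beside it, CXCL12, a chemokine that binds CXCR4, had log2 fold changes of 0.41 and 0.34, MARCH8, a membrane-bound ubiquitin ligase, 0.35 and 0.40, and ZNF22, a zinc finger gene, 0.15 and 0.23 in proximal and distal lung. ALOX5, the enzyme that starts leukotriene synthesis, had -1.44 (adjusted p = 0.124, edgeR) in proximal and -0.57 (adjusted p = 0.442, edgeR) in distal lung. NCOA4, a receptor for the autophagy of ferritin, had -0.47 and -0.07, ZFAND4, a zinc finger gene, 0.16 and 0.11, LOC105605067 -0.13 and -0.03, and LOC101119611 0.08 and 0.07 in proximal and distal lung. MSMB, at 0.0892 to 1.52 CPM, and TMEM72, at 0 to 0.0722 CPM, were close to 0 at term and are given without a fold change. LOC105605068 and LOC101117644 did not pass the filter.

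Before term, some neighbours did pass an adjusted p of 0.05 for CF against WT in distal lung. MARCH8 was higher in CF at day 65 with 0.82 (adjusted p = 0.00423, edgeR), at day 80 with 0.66 (adjusted p = 0.0156, edgeR) and at day 100 with 0.51 (adjusted p = 0.0468, edgeR). LOC101119611 was higher at day 65 with 0.50 (adjusted p = 0.0333, edgeR), and LOC105605067 was lower at day 100 with -1.77 (adjusted p = 0.0387, edgeR). These are 2, 1 and 2 of 11 genes at days 65, 80 and 100, with 0 of 11 at day 120, against a background in either direction of 5.23%, 5.92%, 5.3% and 4.38% of genes. In proximal lung, 0 of 11 passed at any of the 4 ages, against 0.167%, 0.0885%, 0.383% and 1.35%.

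**Figure D4:**
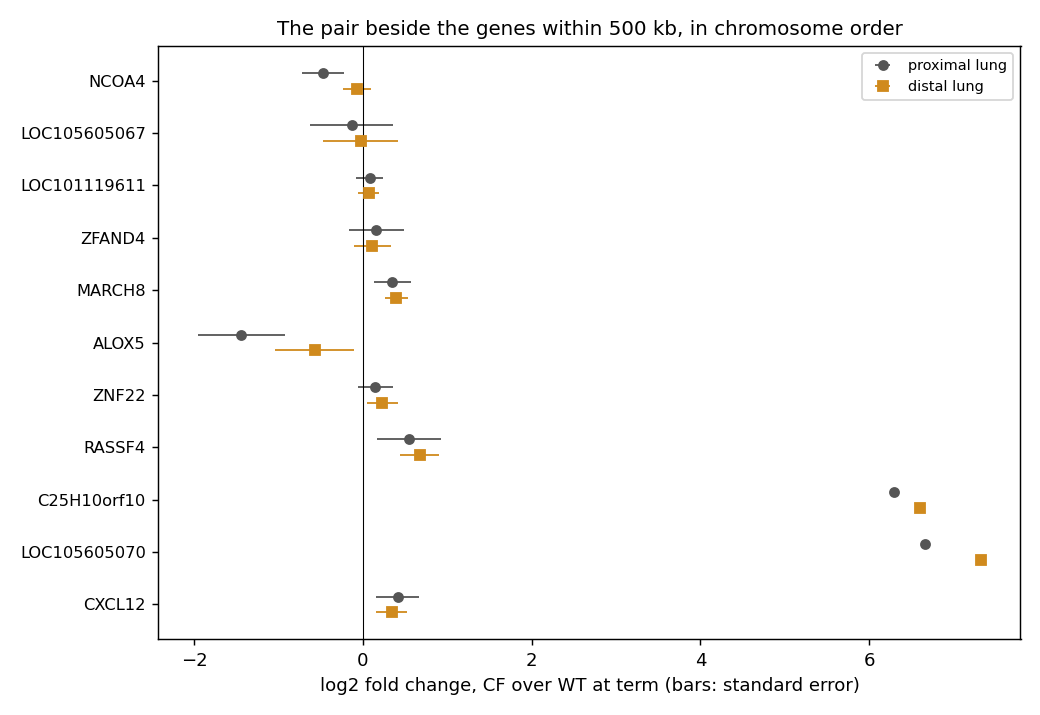
Log2 fold change of CF over WT at term for C25H10orf10, LOC105605070 and the genes within 500 kb with a mean of at least 1 CPM at term, from top to bottom in chromosome order, with proximal lung as circles and distal lung as squares. Bars are standard errors of the edgeR fit and are left out for the pair, which lies at 6.30 to 7.33 with the other genes between -1.44 and 0.67.

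The genes most like C25H10orf10 across libraries were found by Pearson's r of log2 CPM among 13709 genes, as a description. The libraries share genotype, age, animal and depth, and genes are not independent of each other. Over the 40 libraries, LOC105605070 came first with r = 0.975 and Spearman's rho of 0.969. It was followed by PAM, an enzyme that amidates peptide hormones, with r = 0.883, CLCC1, a chloride channel of the endoplasmic reticulum, with 0.867, JAM3, a junctional adhesion molecule, with 0.864, ARHGEF3 with 0.862, and ANKRD37, a target of hypoxia-inducible factor, with 0.857. RASSF4 had r = 0.372. The term libraries that chose the pair enter this r. The rank of LOC105605070 and the split of these genes at term therefore follow in part from that choice. ANKRD37 ran from 17.7 to 215 CPM in CF and from 0.863 to 1.87 CPM in WT at term, without overlap, and before term from 0.868 to 5.38 CPM in CF and from 1.24 to 5.84 CPM in WT. Its WT libraries at term thus overlapped those before term. C25H10orf10 was higher in every library before term than in any WT library at term, and so was JAM3, which stood at 41.6 to 63.0 CPM in WT at term, at 68.0 to 111 CPM in WT and 70.8 to 126.6 CPM in CF before term, and at 125 to 268 CPM in CF at term.

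Over the 32 libraries before term, which did not choose the pair, LOC105605070 again came first with r = 0.951 and rho of 0.940. The next were LOC105607675 with r = 0.948, TTC9 with 0.944, DLL4, a Notch ligand of endothelial cells, with 0.934, TMEM243 with 0.921 and CXCL16, a chemokine, with 0.919. RASSF4 had r = 0.142. None of these 5 had a WT term library below its range in WT before term, whereas all 4 WT term libraries of C25H10orf10 lay below theirs. CXCL16 stood at 46.8 to 70.8 CPM in WT at term against 2.92 to 10.4 CPM in WT before term, and DLL4 at 36.8 to 42.4 CPM in WT at term against 17.1 to 62.9 CPM before. For DLL4, CF at term ran from 84.3 to 344 CPM, above all WT term libraries, and for CXCL16 from 34.6 to 163 CPM, which overlapped the WT term libraries.

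Gene lists tied to what is known of DEPP1 were read at term for their own counts, at an adjusted p of 0.05 or less by edgeR. The lists were chosen with earlier results known. The background is that given for the neighbours, 2.6% of genes higher in proximal and 7.65% in distal lung. With 1 term library left out, the share of all genes higher in CF was 0.792% in proximal and 3.28% in distal lung without CF replicate 2, 3.47% and 8.82% without CF replicate 1, 0.758% and 3.89% without WT replicate 1, and 0.389% and 3.88% without WT replicate 2. The share lower in CF was 1.07% and 3.21%, 4.64% and 11.5%, 1.42% and 3.66%, and 1.03% and 6.58% in the same order. The counts of each list without a library are to be read against these shares. The median log2 fold change over all genes was -0.03 in proximal and 0 in distal lung.

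Of 27 genes that respond to low oxygen, 9 were higher and 1 lower in CF proximal lung, with a median of 1.92, and 16 were higher and 2 lower in distal lung, with a median of 2.07. The 3 with the largest changes in both regions were ANKRD37 with 6.06 (SE 0.96, adjusted p = 0.00303, edgeR) in proximal and 6.43 in distal lung, EGLN3, an oxygen-sensing prolyl hydroxylase, with 5.26 and 5.17, and SLC2A1, the glucose transporter GLUT1, with 3.44 and 3.42. CA9, a carbonic anhydrase named after its values were seen, was among the lower genes in distal lung, with -1.74 (adjusted p = 0.0108, edgeR). The mean of this list differed between the CF animals. Its mean log2 CPM in CF replicate 1 was 0.14 above the WT mean in proximal and 0.25 above it in distal lung, and in CF replicate 2 it was 2.49 and 2.40 above. Single members could be high in both animals, as ANKRD37 had at least 17.7 CPM in each CF term library. Without CF replicate 2, the list held 2 of 27 genes higher in proximal lung with a median of -0.0051, and 6 of 27 higher in distal lung with a median of 0.21, against 0.792% and 3.28% of all genes. Without CF replicate 1, it held 18 of 27 higher in proximal and 20 of 27 in distal lung. Leaving out a WT library lowered the count as well, to 2 or 1 in proximal and 6 or 10 in distal lung for WT replicates 1 and 2, but the median stayed between 1.64 and 1.99. The part of low oxygen in the levels of the pair was not tested.

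Of 23 FOXO-responsive genes, 3 were higher and 2 lower in CF proximal lung, with a median of 0.52, and 6 were higher and 2 lower in distal lung, with a median of 0.48. PIK3IP1, an inhibitor of PI3 kinase, had log2 fold changes of 1.47 and 1.58 in proximal and distal lung, CCNG2, a cyclin linked to cell cycle arrest, 1.12 and 1.44, and CITED2, a transcriptional coregulator, 1.06 and 1.17. The lower genes, named after their values were seen, were SESN1, a stress-response sestrin, and RBL2, a pocket protein, in both regions. Relative to the WT mean, the mean log2 CPM of this list was -0.18 and -0.07 in CF replicate 1 in proximal and distal lung. In CF replicate 2 it was 0.63 and 0.61. Without CF replicate 2, 0 of 24 were higher in proximal lung with a median of -0.38, and 4 of 23 were higher in distal lung with a median of -0.17. Without WT replicate 1 or 2, 0 were higher in proximal and 4 in distal lung, with medians between 0.44 and 0.49, and without CF replicate 1, 9 of 24 and 11 of 23 were higher. Of 16 glucocorticoid-responsive genes, 1 was higher and 2 lower in proximal lung and 2 were higher and 2 lower in distal lung, with medians of 0.17 and 0.10. DDIT4, a stress-induced inhibitor of mTORC1, had 4.68 and 4.41, SGK1, a kinase that regulates sodium transport, -2.57 and -2.36, and GLUL, glutamine synthetase, -1.36 and -1.11. The mean of this list lay on opposite sides of WT in the CF animals, at -0.33 and -0.37 in replicate 1 and at 0.33 and 0.28 in replicate 2 in proximal and distal lung. Without CF replicate 2, the medians were -0.13 and -0.30, with 1 gene higher in each region and 1 and 2 lower, and without another library they lay between 0.03 and 0.38, with 0 to 3 higher and 2 or 3 lower.

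Among cell type markers, 16 endothelial genes had 2 higher and 0 lower in proximal lung, with a median of 0.58, and 6 higher and 0 lower in distal lung, with a median of 0.42. EGFL7, a factor secreted by endothelium, had log2 fold changes of 2.04 and 1.84, and PLVAP, a protein of endothelial diaphragms, 2.35 and 1.64. The summed endothelial level was 1927 to 2868 CPM in WT and 3021 to 3494 CPM in CF at term, without overlap. Before term, the sum in both CF libraries was also above that in both WT libraries in 7 of 8 combinations of age and region. In distal lung at day 65, it was 1344 and 1598 CPM in WT and 2091 and 1905 CPM in CF. Both regions of an age come from the same animals, and the share of all genes split in this way is not given here. By the same rule, the leukocyte marker was below WT in 7 of 8 and the erythroid sum in 6 of 8. The lung epithelial sum was below WT in 4 and above in 2, the adipocyte sum below in 4 and above in 1. The airway sum was below WT in 3 and above in 0. The summed level of the hypoxia-responsive list was likewise above WT in 5 of the 8 combinations. Those of the FOXO-responsive and glucocorticoid-responsive lists were below WT in 7 of 8 each. Sums rest most on the genes with the most reads. The mean log2 CPM, used for these lists at term, did not always split where the sums did. At day 65 the hypoxia-responsive mean was 4.22 and 4.02 in WT and 4.87 and 4.82 in CF proximal lung, without overlap. In distal lung it was 4.57 and 4.08 against 4.67 and 4.43, with overlap. In proximal lung at day 65, the FOXO-responsive mean was 4.37 and 4.29 in WT and 4.53 and 4.25 in CF, also with overlap. At term, both CF animals were alike in the mean of the endothelial list. It was 0.71 and 0.68 above the WT mean in proximal lung and 0.52 and 0.65 in distal lung on the log2 scale. Without CF replicate 2, 1 of 16 endothelial genes was higher in proximal and 4 of 16 in distal lung, and without either WT replicate 0 were higher in proximal lung and 5 or 3 in distal lung. Of 5 lung epithelial, 3 airway and 1 leukocyte markers, 0 passed in either region. The leukocyte marker PTPRC, which encodes CD45, stood at 60.8 and 113 CPM in WT and 17.0 and 46.3 CPM in CF proximal lung, with a log2 fold change of -1.46 (adjusted p = 0.0701, edgeR), and at 45.2 and 57.0 CPM in WT and 22.5 and 60.8 CPM in CF distal lung, with -0.27 (adjusted p = 0.720, edgeR). The groups did not overlap in proximal lung and did in distal lung. The 3 airway genes had negative log2 fold changes in both regions, with medians of -0.89 and -0.92, and their sums ran from 502 to 657 CPM in CF and from 482 to 1597 CPM in WT. The lung epithelial sum was 5670 to 26943 CPM in CF, with replicate 2 the lower in both regions, and 12226 to 19912 CPM in WT. Of 3 erythroid genes, 0 passed in proximal lung and ALAS2, the first enzyme of haem synthesis in red cells, named after its values were seen, was higher in distal lung with 2.77 (adjusted p = 0.00469, edgeR). Erythroid sums ran from 3.65 to 7.80 CPM in CF and from 0.636 to 2.75 CPM in WT. Of 5 adipocyte genes, FABP4, a fatty acid binding protein, was lower in both regions, and the sums ran from 14.2 to 25.7 CPM in CF and from 27.4 to 98.7 CPM in WT. The part of these cell types in the levels of the pair was not tested.

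**Figure D5:**
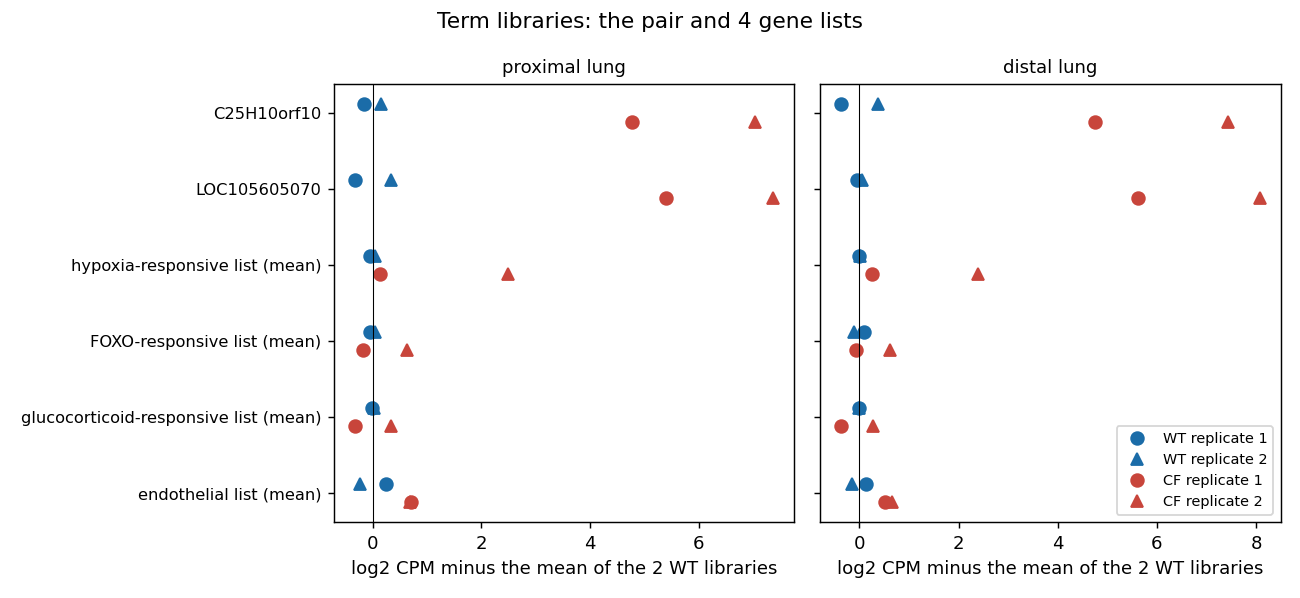
Log2 CPM of each term library minus the mean of both WT libraries of its region, for C25H10orf10, LOC105605070 and the mean of 4 gene lists, with WT in blue, CF in red, replicate 1 as circles and replicate 2 as triangles. Both CF animals lie to the right of WT for the pair, and the hypoxia-responsive list is 0.14 to 0.25 above WT in CF replicate 1 and 2.40 to 2.49 above it in CF replicate 2.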

How the data were processed

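RNA was sequenced as 100 bp paired ends after oligo dT priming from 40 sheep lung libraries. The authors aligned reads to Oar_v4.0 with STAR (2.6 in the submitters' processing notes, while the study's methods name another version) and counted them per gene by featureCounts 1.6.3, and the deposited values are raw counts per gene, not normalized. The annotation release, strand setting and treatment of mates are not given in the sources used here. Of the counts from 1 to 20, 69.18% to 85.82% were even in each library, as when both mates are counted. A further deposited table repeats the 20 CF columns and was not used.

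The analysis ran in R 4.3.3 (edgeR 4.0.16, DESeq2 1.42.0). Low genes were dropped by filterByExpr (count minimum 10, total minimum 15) and libraries were scaled by TMM. The 20 libraries of a region (CF against WT), the 10 of a time course (consecutive ages) and the 20 of a genotype (proximal against distal) were fitted with 1 mean per condition by glmQLFit and tested by glmQLFTest, with Benjamini-Hochberg adjustment over all genes kept. The fits were tested on simulated data with known changes. CPM are on 1 TMM scale over 40 libraries, except for CFTR, which was scaled by total counts. Permutation tests (Python 3.11.15, numpy 2.4.6, scipy 1.17.1) took log2 CPM (prior count 0.5), or the log2 ratio with 0.5 added to each count, and were adjusted over 7 tests without term libraries, while the difference between regions stood outside that family as 2 tests without adjustment. They compare these libraries, and 2 libraries per condition limit every test.

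Genes named were the pair, all genes within 500 kb, the 5 genes of the highest r over 40 and over 32 libraries (average log2 CPM of 1 or more), and in each list the 3 largest changes past 0.05 in both regions, and other list genes are said to be named after their values were seen or are the only gene of their list. The pair and the lists were chosen with earlier results of these data known. Alternatives were RLE, no filter, DESeq2, bias-adjusted quasi-likelihood, thinning, other limits, replicate and animal blocks, other prior counts, the WT day 100 libraries summed and each library or age left out. Leaving out term libraries for the lists, and the ratio by region before term alone, used in place of the planned test over all animals because term libraries chose the pair, were added after seeing the data. No sequences are shown, and not every gene of the lists that passed the limit is reported here.

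Pairing was checked by correlating deviations from group means. For WT and CF libraries of the same number r ran from -0.088 to 0.24, and 3 of 10 were over 0.1, so numbers were not taken to pair genotypes. Proximal and distal libraries pair by animal label, with r from -0.094 to 0.63.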

Additional observations from a re-analysis of the deposited data

Results flagged for a closer look

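The step from day 120 to term went in opposite directions in the genotypes for both genes and both regions, with all WT term libraries below and all CF term libraries above their day 120 libraries. On the log2 scale, the change in CF minus the change in WT was 6.03 in proximal and 6.50 in distal lung for C25H10orf10, and 6.49 in proximal and 7.15 in distal lung for LOC105605070. The difference was not tested, because the pair was chosen from the term libraries that enter it.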

How the results depend on the processing

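The counts of DEGs among the pair stayed at 0 for CF against WT before term (of 16) and for proximal against distal lung before term (of 4) under every alternative run, leave-one-out fits included. For consecutive ages before term, the count of 0 of 24 became 3 with DESeq2. At an adjusted p of 0.05 without a limit on fold change, it became 2. The share of all genes called at these settings is not given here. With the replicate block, the count was 0 in all 3 families, and the C25H10orf10 rise from day 80 to 100 had an adjusted p of 0.0603 in WT distal and 0.0180 in WT proximal lung (edgeR). Over the alternatives of that step, the adjusted p for C25H10orf10 ran from 1.76e-09 to 0.0832 in WT proximal and from 1.92e-05 to 0.354 in WT distal lung. Under the replicate block the permutation p for C25H10orf10 by genotype was 0.312 in proximal and 0.656 in distal lung (exact permutation).

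Some differences between genotypes before term changed sign, and the cause was not tested. In distal lung the C25H10orf10 difference was 0.065 without day 100, and the LOC105605070 difference was 0.041 after thinning, 0.13 without day 80 and 0.14 without day 100. With each library left out, the pooled difference ran from -0.024 to 0.35 for C25H10orf10 and from 0.069 to 0.48 for LOC105605070 in proximal lung, and from -0.21 to 0.0051 and from -0.12 to 0.11 in distal lung. The log2 ratio difference in proximal lung ran from -0.026 to 0.25. Of 160 single fold changes recomputed for genotype before term, 11 changed sign, of 252 between ages, 8, and of 92 between regions before term, 3, and 0 of these were called. In the main fits, the fold changes that turned were up to 0.44 in size for genotype, 0.37 for age and 0.22 for region. Under the alternatives, the turned values reached -0.84 for genotype, -0.45 for age and 0.06 for region. The term folds without TMM were 66.5 and 79.1 for C25H10orf10 and 85.6 and 130 for LOC105605070 in proximal and distal lung. The fewest reads stand behind LOC105605070 in WT at term, with counts of 71 to 142 at 0.641 to 1.19 CPM in libraries that are among the deepest.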
